A study of Homo sapiens with 4 samples.

Results

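The RNA of 10 genes that restrain mitogen-activated protein kinase (MAPK) signaling was examined in MDA-MB-231 and SUM159 cells after treatment with mebendazole (MBZ), a benzimidazole anthelmintic that binds tubulin. The genes were chosen by name, with earlier results of these data known, as a readout of RAS-MAPK output. They were the dual-specificity phosphatase genes DUSP1, DUSP2, DUSP4, DUSP5, DUSP6, DUSP8 and DUSP10, the Sprouty genes SPRY2 and SPRY4, and SPRED1. All 10 were found among the 58735 genes of the count table by their Ensembl identifiers, and in each line all 10 passed a minimum mean of 10 counts. MDA-MB-231 and SUM159 are human triple-negative breast cancer (TNBC) lines. Each was given 1 μM MBZ or its DMSO vehicle for 72 h, and 1 library of polyadenylated RNA was sequenced for each of the 4 conditions. The SUM159 medium contained hydrocortisone and insulin and the MDA-MB-231 medium did not, so line and medium cannot be told apart.

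In the RAS-MAPK cascade, receptors activate RAS, RAS activates RAF kinases, RAF activates MEK, and MEK activates ERK. Activated ERK switches on transcription factors and, with them, the genes of its own inhibitors. DUSP proteins of this group remove phosphates from both the threonine and the tyrosine of an activated MAPK, while Sprouty and SPRED proteins act upstream, at the level of receptors, RAS and RAF. The RNA of DUSP4, DUSP6, SPRY2 and SPRY4 is therefore widely read as a measure of ERK activity, whereas DUSP1, DUSP8 and DUSP10 act largely on the stress kinases JNK and p38. MDA-MB-231 cells are known to carry an activating mutation of BRAF, and SUM159 cells an activating mutation of HRAS.

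With 1 library per condition, a change within a line has no replicate check and no test. The intervals printed for fold changes and line differences are 95% Clopper-Pearson intervals from the read counts of both libraries. Those for a difference between responses are 95% intervals from the summed reciprocal counts of the 4 libraries. Both kinds cover counting error only. A gene was called higher or lower at a fold change of at least 1.5. Shares of all genes printed beside the counts of listed genes are a description. They are not a test, because all the lists were chosen with earlier results known. The libraries held between 17143139 and 24897586 counts. Levels are given as CPM, counts scaled to an equal library size with edgeR's trimmed mean of M values (TMM). As TNBC lines should, both had little or no hormone receptor RNA, with 0 counts of PGR in each library and at most 18 of ESR1. Of 6 mesenchymal markers, SPARC had 38 and 18 counts in MDA-MB-231, and the other 5 had at least 422 counts in every library. The epithelial genes CDH1 and EPCAM had at most 12 and 190 counts, but the luminal keratin gene KRT8 was abundant in all 4 libraries, at between 9430 and 27089 counts. ERBB2 was present, at between 1216 and 1996 counts. Genes of mitosis differed with treatment in opposite directions. The summed level of 15 G2/M genes went from 3821 to 2083 CPM in MDA-MB-231 and from 373 to 1920 CPM in SUM159. In either direction, a change in the share of dividing cells and a change in RNA per cell cannot be told apart in bulk RNA.

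With MBZ, DUSP6 and SPRY4 were lower in MDA-MB-231 and higher in SUM159, and DUSP4 was lower in MDA-MB-231. SPRY2, also read as a measure of ERK activity, was higher in SUM159 but short of 1.5-fold in MDA-MB-231, at 0.35 on the log2 scale. DUSP1, DUSP5, DUSP8 and DUSP10 were higher in both lines. In MDA-MB-231, 4 of the 10 genes were at least 1.5-fold higher and 3 were at least 1.5-fold lower, where 18.3% of the 15142 genes compared were higher and 15.8% were lower. In SUM159, 8 of the 10 were higher and 0 lower, where 21.5% of the 15674 genes compared were higher and 21.7% were lower. The median log2 fold change of the 10 genes was 0.31 in MDA-MB-231 and 0.87 in SUM159, beside -0.02 and -0.03 over all genes. In both lines 4 of the 10 were higher, against 6.12% of the 13733 genes compared in both, and 2 (DUSP6 and SPRY4) went from lower in MDA-MB-231 to higher in SUM159, against 3.12%.

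**Figure D1:**
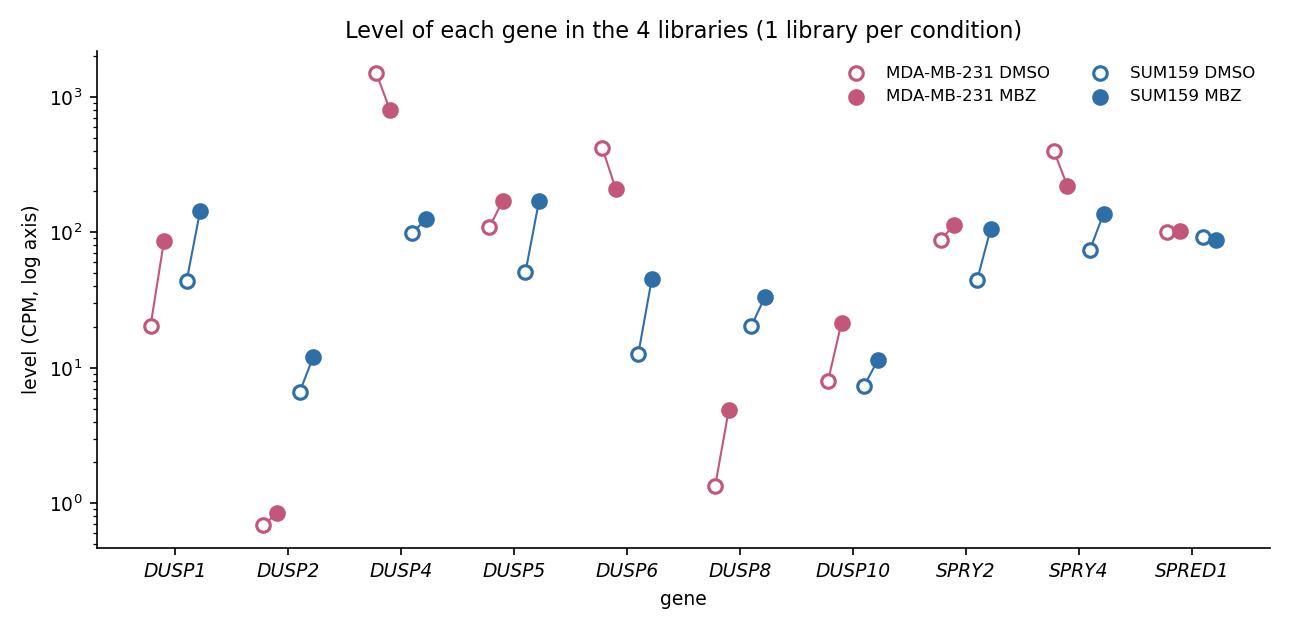
Level of each gene (CPM with TMM scaling over the 4 libraries, log axis) in MDA-MB-231 (red) and SUM159 (blue) with DMSO (open circles) or MBZ (filled circles), 1 library each, with a line joining the libraries of a cell line. DUSP4, DUSP6 and SPRY4 stand lower with MBZ than with DMSO in MDA-MB-231, DUSP6 from 422 to 209 CPM, while all genes but SPRED1 stand higher with MBZ in SUM159, DUSP6 at 45.6 against 12.7 CPM.

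The promoters of 3 genes are shown, the 2 in which a motif was found and, beside them, that of DUSP6, which stood apart in its response. RefSeq promoter windows on GRCh38.p14 were matched for 8 of the 10 genes, all but DUSP4 and DUSP5. In the 250 bases before the start, the cyclic AMP response element (CRE, TGACGTCA, which reads the same on both strands) was found once for DUSP1 and at 2 positions for DUSP8, and in no window of the other 6 genes, DUSP10 among them. The DUSP1 window is chr5:172771196-172771445, the DUSP8 window chr11:1572272-1572521 and the DUSP6 window chr12:89352502-89352751. All 3 are on the minus strand and are printed 5′ to 3′ with the CRE in capitals.
DUSP1: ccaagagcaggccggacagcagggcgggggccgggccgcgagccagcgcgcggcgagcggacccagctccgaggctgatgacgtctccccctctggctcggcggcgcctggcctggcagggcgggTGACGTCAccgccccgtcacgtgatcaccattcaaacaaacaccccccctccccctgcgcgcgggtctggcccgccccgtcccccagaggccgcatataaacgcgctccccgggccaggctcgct
DUSP8: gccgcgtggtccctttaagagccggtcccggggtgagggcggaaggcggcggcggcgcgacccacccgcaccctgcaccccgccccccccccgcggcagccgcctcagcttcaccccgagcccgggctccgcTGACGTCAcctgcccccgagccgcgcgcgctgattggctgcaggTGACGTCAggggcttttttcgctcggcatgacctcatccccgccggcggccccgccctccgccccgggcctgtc
DUSP6: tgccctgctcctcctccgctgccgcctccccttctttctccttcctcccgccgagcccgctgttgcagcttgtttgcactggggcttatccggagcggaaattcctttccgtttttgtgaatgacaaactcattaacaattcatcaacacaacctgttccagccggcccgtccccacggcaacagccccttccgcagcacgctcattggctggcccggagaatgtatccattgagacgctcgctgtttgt
The CRE of DUSP1 lies between 125 and 118 bases before the start, and those of DUSP8 between 118 and 111 and between 74 and 67. Of all 35116 promoter windows of this length, 1.65% hold a CRE and 0.0541% hold 2 or more. The AP-1 site TGACTCA, the ETS site CCGGAAG and the CArG box of serum response factor, searched on both strands, were found in none of the 11 windows of the 8 genes, beside 4.2%, 8.52% and 1.16% of all windows. A match describes letters in a window and is not evidence that a factor binds there.

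Among the phosphatases of the nucleus, DUSP1 was higher in both lines, a little more so in MDA-MB-231. DUSP1 (ENSG00000120129, chromosome 5 of GRCh38 from 172768096 to 172771195), an immediate early gene whose protein acts on p38, JNK and ERK, had 473 counts with DMSO against 1653 with MBZ in MDA-MB-231, and 725 and 2982 in SUM159. Both MBZ libraries stood above both DMSO libraries. The change was 4.22-fold in MDA-MB-231, 2.08 on the log2 scale (1.93 to 2.23), and 3.30-fold in SUM159, 1.72 on the log2 scale (1.61 to 1.84). The difference between the responses, SUM159 less MDA-MB-231, was -0.35 (-0.54 to -0.17). By fold, DUSP1 was number 304 from the top of the genes compared in MDA-MB-231.

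DUSP5 (ENSG00000138166, chromosome 10 from 110497907 to 110511533), which encodes a nuclear phosphatase specific for ERK, was also higher in both lines, and more so in SUM159. Its counts were 2523 with DMSO against 3251 with MBZ in MDA-MB-231, and 837 and 3497 in SUM159. The log2 fold changes were 0.64 (0.56 to 0.71) and 1.75 (1.64 to 1.86), and the difference between them was 1.11 (0.98 to 1.24). The lower end of the interval in MDA-MB-231 lay just below the 1.5-fold cutoff, which is 0.58 on the log2 scale.

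DUSP4, whose protein is a nuclear phosphatase of ERK and JNK, was by far the most abundant of the 10 genes in MDA-MB-231 and was lower there after MBZ. DUSP4 (ENSG00000120875, chromosome 8) had 34617 counts with DMSO against 15236 with MBZ in MDA-MB-231, and 1628 and 2604 in SUM159. Its log2 fold change was -0.91 (-0.94 to -0.88) in MDA-MB-231. In SUM159 it was 0.36 (0.27 to 0.45), which did not reach 1.5-fold (0.66 on total-count scaling, which did), and the difference between the responses was 1.27 (1.18 to 1.37). Per kilobase of exon, DUSP4 stood first among the 10 genes in MDA-MB-231 with DMSO at 205 CPM and with MBZ at 110 CPM, and held 56.5% and 46.3% of the summed CPM of the 10 genes in these libraries.

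DUSP2 (ENSG00000158050, chromosome 2 from 96143169 to 96145440), also a nuclear phosphatase gene, is best known from activated immune cells and was scarce in MDA-MB-231. It had 16 counts in either library of MDA-MB-231, and 109 with DMSO and 247 with MBZ in SUM159. A change in MDA-MB-231 was not detectable at this depth, with a log2 fold change of 0.27 (-0.82 to 1.37). In SUM159 the log2 fold change was 0.86 (0.53 to 1.20).

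Of the 10 genes, DUSP6 showed the widest gap between the responses of the lines. DUSP6 (ENSG00000139318, chromosome 12 from 89347235 to 89352501) encodes a cytoplasmic phosphatase specific for ERK and is a direct target of ERK-driven ETS factors. It had 9816 counts with DMSO against 3970 with MBZ in MDA-MB-231, and 210 and 940 in SUM159. Each library of MDA-MB-231 stood above each of SUM159, and the lines lay closer with MBZ than with DMSO. The gene was 2.05-fold lower in MDA-MB-231, a log2 fold change of -1.03 (-1.09 to -0.98), and 3.59-fold higher in SUM159, a log2 fold change of 1.85 (1.63 to 2.07). The difference between the responses was 2.88 on the log2 scale (2.66 to 3.10). An antisense lncRNA shares 1105 of the 3859 exonic bases of DUSP6 and was listed at between 0 and 37 counts. If the counting ignored strand, reads in the shared part were assigned to neither gene.

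DUSP8 and DUSP10, which encode phosphatases directed at JNK and p38, were higher in both lines, and more so in MDA-MB-231. DUSP8 (ENSG00000184545, chromosome 11 from 1554051 to 1572271) had 31 counts with DMSO against 92 with MBZ in MDA-MB-231, and 335 and 683 in SUM159. DUSP10 (ENSG00000143507, chromosome 1 from 221701424 to 221742089) had 186 and 410 counts in MDA-MB-231, and 122 and 234 in SUM159. The MBZ library was the higher of the 2 in each line for both genes. For DUSP8 the log2 fold changes were 1.84 (1.24 to 2.48) in MDA-MB-231 and 0.71 (0.52 to 0.90) in SUM159. For DUSP10 they were 1.41 (1.16 to 1.67) and 0.62 (0.30 to 0.95), the latter being the value nearest above the cutoff in SUM159. The responses of SUM159 were smaller than those of MDA-MB-231 by intervals that lay outside 0, at -1.13 (-1.74 to -0.51) for DUSP8 and -0.79 (-1.19 to -0.39) for DUSP10.

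**Figure D2:**
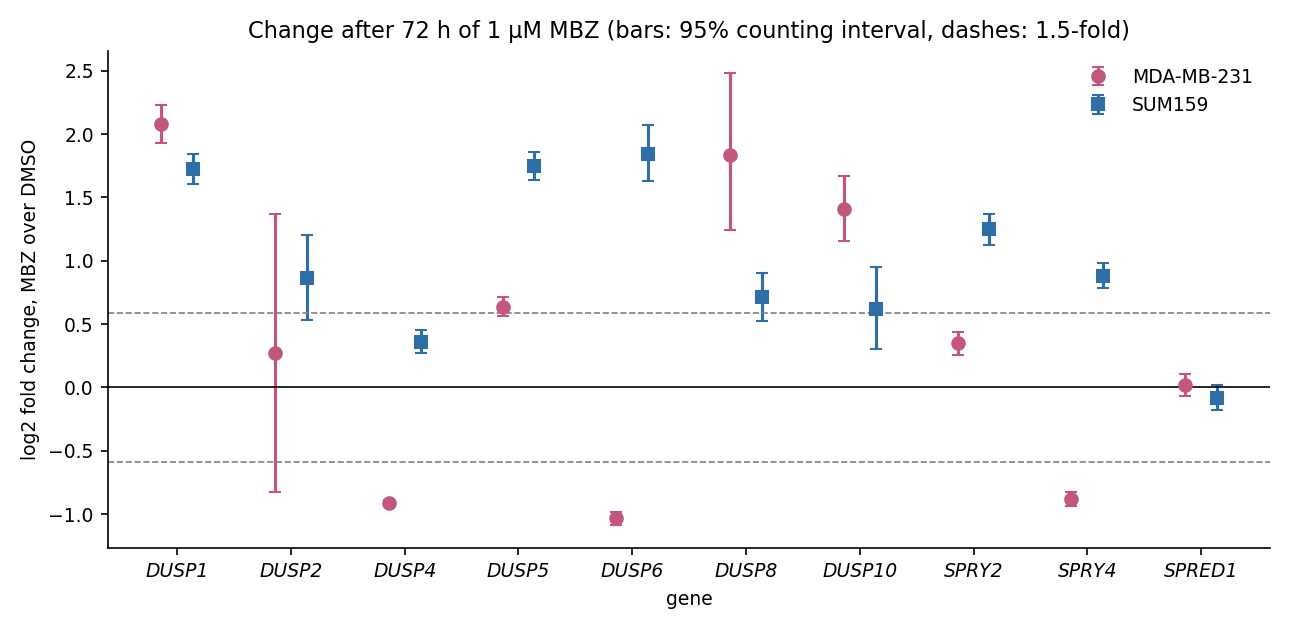
Log2 fold change of MBZ over DMSO in MDA-MB-231 (red circles) and SUM159 (blue squares), with bars for the 95% counting interval of 2 libraries and dashed lines at a fold change of 1.5. DUSP4, DUSP6 and SPRY4 lie below the lower dashed line in MDA-MB-231 only, at -0.91, -1.03 and -0.88, and SPRED1 lies near 0 in both lines.

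The 2 Sprouty genes differed in MDA-MB-231 and were both higher in SUM159. Sprouty proteins are induced by growth factor signals and dampen the path from receptors to RAS and RAF. SPRY4 (ENSG00000187678, chromosome 5 from 142310427 to 142326455) had 9277 counts with DMSO against 4177 with MBZ in MDA-MB-231, and 1231 and 2827 in SUM159. The log2 fold changes were -0.88 (-0.93 to -0.83) and 0.88 (0.79 to 0.98), so that the gene was 1.84-fold lower in one line and 1.84-fold higher in the other, with a difference between the responses of 1.76 (1.65 to 1.87). SPRY2 (ENSG00000136158, chromosome 13 from 80335976 to 80341126) had 2055 and 2164 counts in MDA-MB-231, and 735 and 2173 in SUM159. On the log2 scale this was 0.35 (0.26 to 0.43) in MDA-MB-231, the value nearest below the cutoff there (0.61 and past it on total-count scaling), and 1.25 (1.13 to 1.37) in SUM159.

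SPRED1 (ENSG00000166068, chromosome 15 from 38252836 to 38357249), whose protein brings the RAS inhibitor neurofibromin to the membrane, was level across the libraries. It had 2323 counts with DMSO against 1953 with MBZ in MDA-MB-231, and 1531 and 1801 in SUM159. The log2 fold changes of 0.02 (-0.07 to 0.11) and -0.08 (-0.18 to 0.02) were not distinguishable from 0 at this depth. On scaling by total counts alone the values were 0.29 in MDA-MB-231 and 0.22 in SUM159.

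DUSP6 and SPRY4 differed in the same directions as the G2/M genes. Of 15 G2/M genes, 13 were at least 1.5-fold lower in MDA-MB-231 (9 on total-count scaling) and 15 at least 1.5-fold higher in SUM159, with median log2 fold changes of -1.01 and 2.40, beside 15.8% of all genes lower and 21.5% higher. Their part in the values of DUSP6 and SPRY4 was not tested. DUSP1, DUSP5, DUSP8 and DUSP10 were higher in both lines, and the part of the G2/M genes in their values was not tested either.

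A shared effect of MBZ was tested by edgeR's quasi-likelihood method with line and treatment as terms. The fit left 1 residual degree of freedom, which held the unequal responses of the lines. The method moderates each gene's spread towards that of all genes, so a standard error is not the gene's own spread alone. No member passed an adjusted p of 0.05 (Benjamini-Hochberg over 16100 genes), where 0.00621% of genes passed for a shared rise and 0% for a shared fall. At an unadjusted p under 0.05, 5 of the 10 genes were higher (DUSP1, DUSP5, DUSP8, DUSP10 and SPRY2) and 0 were lower, beside 3.91% and 3.24% of all genes. Of the 10, DUSP1 had the largest shared change, 1.94 ± 0.29 on the log2 scale (± standard error), at an adjusted p of 0.327 in edgeR. Over the settings run this adjusted p lay between 6.46e-05, when no gene with a count was filtered out, and 1.00, when the line was left out of the model, and DESeq2's Wald test gave 0.000445. For DUSP6 and SPRY4, whose changes in the lines were opposite, the shared log2 fold changes were 0.42 (standard error 0.69) and 0.04 (standard error 0.47).

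**Figure D3:**
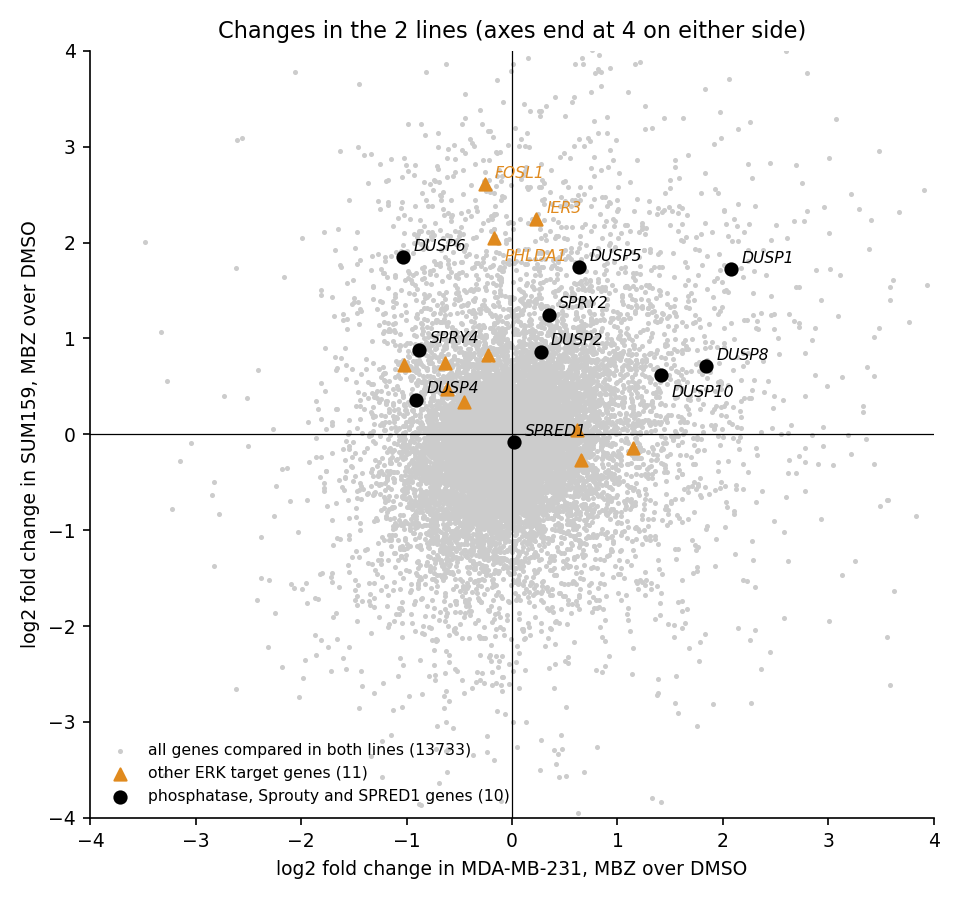
Log2 fold change of MBZ over DMSO in SUM159 against that in MDA-MB-231 for the 10 genes (black circles), 11 other ERK target genes (orange triangles) and all 13733 genes compared in both lines (grey points, some beyond the axes). DUSP6 and SPRY4 lie in the upper left, with opposite changes, and DUSP1, DUSP5, DUSP8 and DUSP10 lie in the upper right.

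The lines were also compared with each other in the DMSO libraries, from cultures given vehicle for 72 h. With DMSO, DUSP4, DUSP5, DUSP6, SPRY2 and SPRY4 were at least 1.5-fold lower in SUM159 than in MDA-MB-231, and DUSP1, DUSP2 and DUSP8 at least 1.5-fold higher. This is 5 of 10 lower and 3 of 10 higher, beside 30.6% and 31.0% of the 15559 genes compared. The share of the 10 genes that was higher was thus near that of all genes. The log2 difference of SUM159 over MDA-MB-231 was -5.06 (-5.26 to -4.86) for DUSP6, a level 33.3-fold lower, and -3.92 (-3.99 to -3.85) for DUSP4 and -2.42 (-2.51 to -2.34) for SPRY4. It was 3.92 (3.39 to 4.50) for DUSP8 and 3.25 (2.49 to 4.11) for DUSP2. DUSP10 did not differ beyond counting error, at -0.12 (-0.46 to 0.22). All 15 G2/M genes were lower in SUM159 as well with DMSO, with a median log2 difference of -3.31, and their part in the differences of the members was not tested.

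Over both treatments, the line difference passed edgeR's quasi-likelihood test for 4 of the 10 genes, with the treatment in the model. DUSP2 and DUSP8 were higher in SUM159, with log2 differences of 3.58 (standard error 0.58, adjusted p = 0.0077) and 3.36 (standard error 0.46, adjusted p = 0.00409), where 11.6% of 16100 genes passed in this direction. DUSP4 and DUSP6 were lower, with -3.25 (standard error 0.48, adjusted p = 0.00522) and -3.57 (standard error 0.73, adjusted p = 0.0161), where 9.85% passed. The adjusted p of each of these 4 genes was at most 0.0161 under every setting run. SPRY4 missed the threshold at an adjusted p of 0.0663, which ranged from 0.000456 to 0.0663 over the settings run, and DUSP1 at 0.0546, with a range from 0.0463 to 0.464. At an unadjusted p under 0.05, 3 members were higher and 3 lower, beside 19.1% and 16.6% of all genes. Here too the 1 residual degree of freedom held the unequal responses of the lines, since no condition was repeated. Each gene's spread was again moderated towards that of all genes.

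With MBZ, 3 of the 10 genes were at least 1.5-fold higher in SUM159 and 4 at least 1.5-fold lower, beside 28.3% and 28.1% of the 16357 genes compared, and the difference between the lines was smaller than with DMSO for 7 of the 10. DUSP6 went from 33.3-fold to 4.58-fold lower in SUM159, DUSP4 from 15.2-fold to 6.35-fold lower and SPRY4 from 5.37-fold to 1.60-fold lower. For DUSP5 the size of the log2 difference went from 1.10 to 0.01, and for SPRY2 from 0.99 to 0.11. The median size of the log2 difference went from 1.76 to 0.83 over the 10 genes and from 0.80 to 0.66 over all 15083 genes, of which 59.5% came closer. The difference was wider for DUSP2, DUSP10 and SPRED1, DUSP10 reaching -0.93 (-1.16 to -0.69). The median log2 difference of the G2/M genes went from -3.31 with DMSO to -0.01 with MBZ, and its part was not tested here either. These differences and the responses share the same 4 libraries and are not separate evidence.

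**Figure D4:**
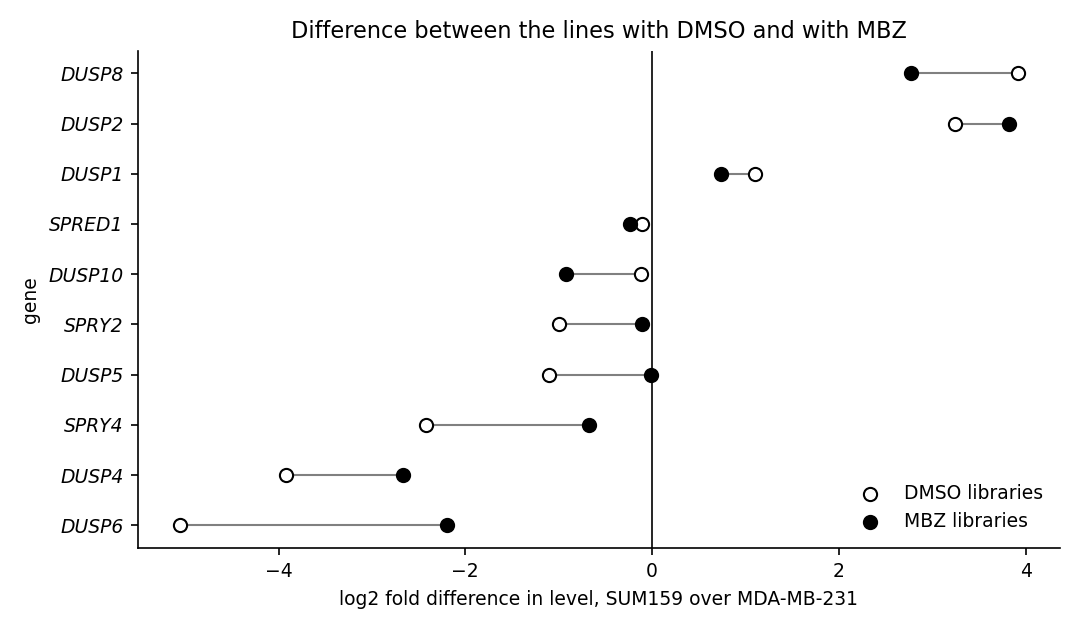
Log2 difference in level of SUM159 over MDA-MB-231 for each gene, with DMSO (open circles) and with MBZ (filled circles), 1 library for each line and treatment. DUSP6 moves from -5.06 to -2.20 and DUSP5 from -1.10 to -0.01, while DUSP2 moves away from 0.

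The order of the genes by level, in CPM per kilobase of exon, differed between the lines. In MDA-MB-231 with DMSO it was led by DUSP4 at 205, DUSP6 at 109 and SPRY4 at 60.9. In SUM159 with DMSO it was led by DUSP1 at 21.7, DUSP5 at 19.9 and SPRY2 at 13.8, with DUSP4 at 13.5 close behind and DUSP6 ninth of the 10 at 3.29. With MBZ the leading genes of SUM159 kept their order, at 71.8 for DUSP1, 66.9 for DUSP5 and 32.8 for SPRY2. In MDA-MB-231 with MBZ DUSP5 moved to second at 67.5 and DUSP1 went from 10.1 to 43.2. Levels without a replicate have no spread between cultures, so neighbours in these orders cannot be told apart beyond counting error.

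Other genes of the same families were also measured. DUSP7, DUSP9 and DUSP16 complete the phosphatase group, and SPRY1, SPRY3, SPRED2 and SPRED3 the Sprouty and SPRED group. Of these 7, 5 could be compared in MDA-MB-231, where SPRY1 and SPRED2 were lower, with log2 fold changes of -1.01 and -0.68 (SPRED2 was short of 1.5-fold on total-count scaling), and 0 were higher, beside 15.8% and 18.3% of all genes. All 7 could be compared in SUM159, where 0 reached 1.5-fold in either direction. DUSP16, whose protein acts on JNK and p38 like those of DUSP8 and DUSP10, stood at 0.22 (MDA-MB-231) and -0.09 (SUM159) on the log2 scale. SPRY1 resembled DUSP6 in its levels, with 3007 counts with DMSO against 1232 with MBZ in MDA-MB-231, but 68 and 101 in SUM159, where its log2 fold change was 0.25.

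Of 11 other ERK target genes, 6 were higher and 0 lower in SUM159, while MDA-MB-231 had 3 higher and 3 lower, beside 21.5% and 21.7% of all genes in SUM159 and 18.3% and 15.8% in MDA-MB-231. On total-count scaling MDA-MB-231 had 3 higher and 1 lower, ETV1 and ETV5 no longer being called, and with DESeq2's size factors 2 higher and 3 lower. The median log2 fold changes were 0.73 and -0.23, and the second of these turns to 0.04 on total-count scaling. FOSL1, an AP-1 subunit stabilized by ERK, went from 585 to 4434 counts in SUM159, a log2 fold change of 2.61, and PHLDA1 from 2248 to 11584, a log2 fold change of 2.05. Their log2 fold changes in MDA-MB-231 were -0.26 and -0.17. ETV4 and ETV1, ETS factors induced by ERK, had log2 fold changes of -1.03 and -0.63 in MDA-MB-231 and 0.73 and 0.74 in SUM159. The 3 higher genes of MDA-MB-231 were EPHA4, MYC and EGR1, at 1.15, 0.65 and 0.62.

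Immediate early genes, which respond first to growth factor and stress signals, were higher or below 1.5-fold in both lines. In MDA-MB-231, 5 of 9 compared were higher and 0 lower, and in SUM159, 6 of 10 were higher and 0 lower, beside 18.3% and 21.5% of all genes higher. As with DUSP1, ATF3, FOSB and NR4A1 were higher in both lines. ATF3, a CRE-binding stress factor, had 89 counts with DMSO against 1276 with MBZ in MDA-MB-231, and 114 and 726 in SUM159, with log2 fold changes of 4.11 and 2.35. FOSB had log2 fold changes of 3.91 and 2.55, and NR4A1 of 2.69 and 1.53.

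For the cascade itself, the shares of called genes were near or below those of all genes. Of 17 genes from adaptors to ERK, MDA-MB-231 had 0 higher and 1 lower, and SUM159 had 2 higher and 4 lower, where 21.7% of all genes were lower. The 1 gene lower in MDA-MB-231 was MAPK3, which encodes ERK1, with a log2 fold change of -1.02. HRAS, the RAS gene mutated in SUM159, went from 461 to 1022 counts there, a log2 fold change of 0.83, and was at -0.46 in MDA-MB-231. Of 10 other inhibitors of RAS and receptors, 3 were lower in MDA-MB-231 and 4 in SUM159, with 0 higher in either, beside 15.8% and 21.7% of all genes lower. DAB2IP, a RAS GTPase-activating protein, and IL17RD, an inhibitor of FGF signaling, were lower in both lines, DAB2IP falling short of 1.5-fold in both on total-count scaling and IL17RD with 1063 and 414 counts in MDA-MB-231 and 14 and 9 in SUM159, where its interval of -2.34 to 0.36 included 0. On total-count scaling the cascade had 3 higher and 1 lower in MDA-MB-231 and 4 higher and 2 lower in SUM159, and the inhibitors had 2 higher and 2 lower in either line. With DESeq2's size factors the cascade had 0 higher and 3 lower in MDA-MB-231.

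DUSP8 and DUSP10 act on the kinases of the JNK and p38 cascades. Of 13 JNK and p38 cascade genes, 12 could be compared in each line. In MDA-MB-231, 0 were higher and 2 lower, MAP2K6 and MAPK11, and in SUM159, 2 were higher, MAPK13 and MAP2K3 with log2 fold changes of 1.44 and 1.06, and 1 lower, MAPK10, shares near or below those of all genes. On total-count scaling, 1 was higher and 1 lower in MDA-MB-231, and 3 higher and 1 lower in SUM159. The genes of JNK1 and p38α, MAPK8 and MAPK14, had log2 fold changes of 0.17 and -0.47 in MDA-MB-231 and 0.04 and -0.54 in SUM159.

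**Figure D5:**
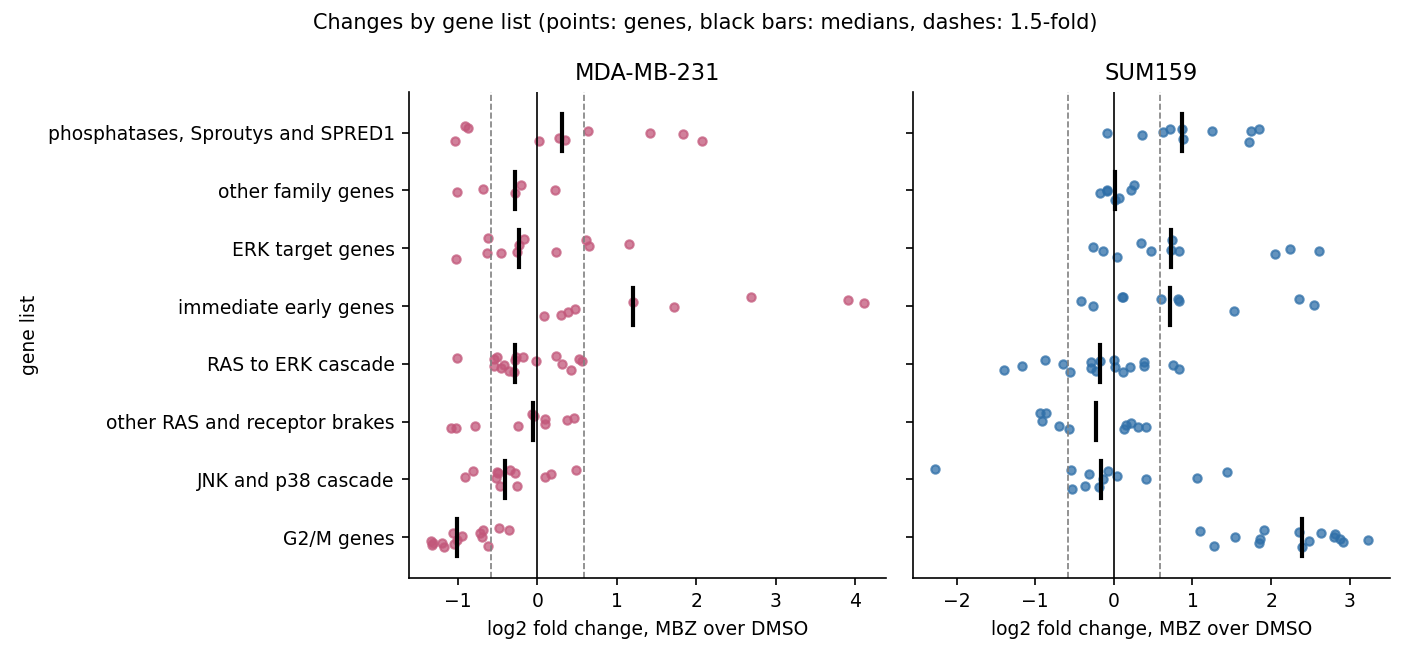
Log2 fold change of MBZ over DMSO for the genes of each list (points, with random vertical spread) in MDA-MB-231 (left) and SUM159 (right), with black bars at the median and dashed lines at a fold change of 1.5. The G2/M genes lie on opposite sides of 0 in the lines, with medians of -1.01 and 2.40, and the median of the immediate early genes lies above 0 in both.

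The genes nearest to DUSP6 and SPRY4 in pattern were sought among 11151 other genes whose mean reached 100 counts, by the Euclidean distance of log2 CPM over the 4 libraries after each gene was centred. NRGN, which encodes a calmodulin-binding protein known from neurons, lay nearest to DUSP6, at a distance of 0.19, with 1926 counts with DMSO against 682 with MBZ in MDA-MB-231, and 40 and 160 in SUM159. SLCO4A1-AS1, EPHB3, IGF2BP3 and PFKFB4 followed at between 0.43 and 0.55. NIBAN2 lay nearest to SPRY4, at 0.04, followed by PHF19, WRAP53, ETV4 and TMPO at between 0.10 and 0.17. ETV4 was the 1 gene of the lists used here among the 5 nearest to either. Likeness over 4 libraries describes these libraries and carries no test.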

How the data were processed

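Per the labels and the study's methods, the authors aligned paired-end reads with STAR 2.5 (GRCh38) and used the union mode of HTSeq 0.6.1 to assign them to genes. The deposited values are raw counts, 1 column for each of the 4 libraries. The annotation release and the strand setting were not given in the sources used here. Of 58735 identifiers, 58207 matched GENCODE release 44, from which symbols, coordinates and exonic lengths were taken.

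Fold changes were differences of log2 CPM (prior count 0.125) from edgeR 4.0.16 in R 4.3.3, with TMM within a line for treatment and over the 4 libraries for levels and line differences. Genes whose mean over both libraries of a comparison was under 10 counts were left out. A count of 0 allows up to 0.175 CPM (3 counts, counting error only). The interval of a difference of responses used the summed reciprocal counts. Standard errors were derived from edgeR's F statistic after filterByExpr. The functions were tested on simulated data. The alternatives were other scalings, count minimums, prior counts and folds, DESeq2 1.42.0, and models without 1 factor.

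The members and the lists were chosen with earlier results of these data known. Genes named are the 10 members, genes of the lists that reached 1.5-fold or whose role was needed, and the 5 nearest in pattern to DUSP6 and SPRY4. Luminal and mesenchymal marker lists served to check the lines: of the luminal and hormone receptor genes, 5 of 8 could be compared in each line, and 1 was higher and 1 lower in MDA-MB-231 (3 and 1 on total-count scaling) and 1 higher and 2 lower in SUM159, and of 6 mesenchymal genes 3 were lower in each line (2 on total-count scaling, with 1 higher in SUM159), beside 15.8% (MDA-MB-231) and 21.7% (SUM159) of all genes lower and 18.3% and 21.5% higher. List genes that are not named are covered by their counts.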

Additional observations from a re-analysis of the deposited data

Results flagged for a closer look

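DUSP4, DUSP6 and SPRY4 differed from DMSO in opposite directions in the 2 lines, with counting intervals on opposite sides of 0. The log2 fold changes of MBZ over DMSO in MDA-MB-231 and SUM159 were -0.91 and 0.36 for DUSP4, -1.03 and 1.85 for DUSP6, and -0.88 and 0.88 for SPRY4. With 1 library for each line and treatment, the difference was not tested. No group had enough samples to look for a library that stood apart.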

How the results depend on the processing

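No paired analysis was possible because each line and treatment has 1 library and all carry 1 replicate number, apart from the pairing by line that the shared test already holds, without which the adjusted p of DUSP1 was 1.00 against 0.327 in edgeR. No replicate could be left out. The counts of members were recomputed under 50 alternatives, of which 45 stayed within 1.5 times the reported count. A fold of at least 2 left 1 member lower in MDA-MB-231 (DUSP6) and 4 higher in SUM159, and a counting interval wholly past 1.5-fold left 5 higher in SUM159. DESeq2's Wald test and a fit without the filter on low counts each called 1 member, DUSP1, for a shared change, against 0. Of 60 recomputed log2 fold changes of members, 43 stayed within their counting interval, 17 moved outside it, and 0 called changes turned direction. Scaling by total counts moved the all-gene median upward by 0.27 (MDA-MB-231) and 0.30 (SUM159) on the log2 scale. It gave 5 members higher and 3 lower in MDA-MB-231, with SPRY2 added, and 9 higher and 0 lower in SUM159, with DUSP4 added, which was then also called in opposite directions in the lines. The all-gene calls, higher and lower, were then 4408 and 1146 in MDA-MB-231, against 2765 and 2386, and 5135 and 2004 in SUM159, against 3376 and 3403. In all genes, the shared test made 1 call for a rise and 0 for a fall, DESeq2's Wald test 45 and 55, the unfiltered fit 153 and 145, and the model without the line 0 and 0. Depth limits DUSP2 in MDA-MB-231 most, at 16 counts in each library.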
